A study of Arabidopsis thaliana with 26 samples.

Results

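COR15A, COR15B, COR47 and STZ are 4 Arabidopsis genes known for their induction by cold, drought and salt. They were taken as the probe sets annotated with those names, STZ being also known as ZAT10. Each gene had 1 probe set, so the group is 4 of 13350 named genes and 4 of 22810 probe sets on the array. All 4 probe sets entered the tests: COR15A, COR15B and COR47 lay above the 40th percentile of signal on each of the 26 arrays, and STZ did so on 17, of which 2 were the mature-leaf arrays and 15 were among the 24 developing-leaf arrays.

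The arrays hold total RNA from leaves of Arabidopsis thaliana Col-0 (stock N1092), which grew in a growth room on Humax compost (20 °C, 50% humidity, 10 h of light). Mature leaves came from plants treated for 24 h (2 arrays). Developing leaves, at leaf insertions 19 to 21, were taken at 2, 4, 12, 24, 48 and 96 h (4 arrays each). Every group had the treatment that the series title calls elevated CO2 with ambient light. The labels name it only by a letter, list a normal atmosphere among the growth conditions, and do not say which leaves were exposed. No array of untreated plants was analysed here, so no value below is a response to CO2 measured against a control.

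COR15A and COR15B are closely related late embryogenesis abundant proteins of the chloroplast stroma that protect membranes when cells lose water on freezing. COR47 is an acidic dehydrin, a hydrophilic protein that accumulates in cells short of water. The COR genes are direct targets of the CBF (DREB1) transcription factors, which bind the CRT/DRE element of their promoters, and of abscisic acid signalling. STZ is a zinc finger protein of the C2H2 class with an EAR repressor motif. Its transcript is induced by cold, salt, drought and strong light. The circadian clock gates the cold induction of the CBF genes. Whether the hour of sampling bears on their targets in these plants, grown at 20 °C, was not tested.

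Signals are the authors' linear MAS5 intensities, and each array has a trimmed mean near 100. Array medians lay between 39.7 and 47.4, and replicates correlated at r = 0.964 to 0.989 across probe sets on a log2 scale. Replicate 1 of developing 24 h and that of 48 h had high readings of the cre spike-in, a control RNA added at hybridisation. They read 6451 and 6745, where the median array had 2356. These arrays also had high readings of the 25S rRNA control (4449 and 1571, where the median array had 67.7), as did replicate 1 of developing 96 h (1536). Among leaf markers, the photosynthesis genes PSAN and RCA were bright in every group, with summed signals of 6590 to 6913 in mature leaves and 3371 to 8612 over the developing groups. A log2 change below is on the log2(signal + 16) scale, with its standard error, from 1 limma fit over all 26 arrays. Its p was adjusted by Benjamini-Hochberg over 16154 probe sets, and a change is called at an adjusted p below 0.05. The labels number the replicates without saying that they are separate plants, so the spread behind each p-value is that among these samples and may be technical.

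In mature leaves at 24 h, STZ and COR15A stood far above developing leaves of the same hour, COR15B was moderately higher and COR47 slightly lower. All 4 genes passed the test, 3 higher and 1 lower. Over all probe sets 54.8% passed in this comparison, so the count of 4 is read against a contrast in which most genes differed. The log2 changes were 3.30 for STZ, 3.03 for COR15A, 0.63 for COR15B and -0.43 for COR47. The median over all probe sets tested was -0.10. STZ and COR15A ranked 50th and 79th from the top of all 16154 changes.

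**Figure D1:**
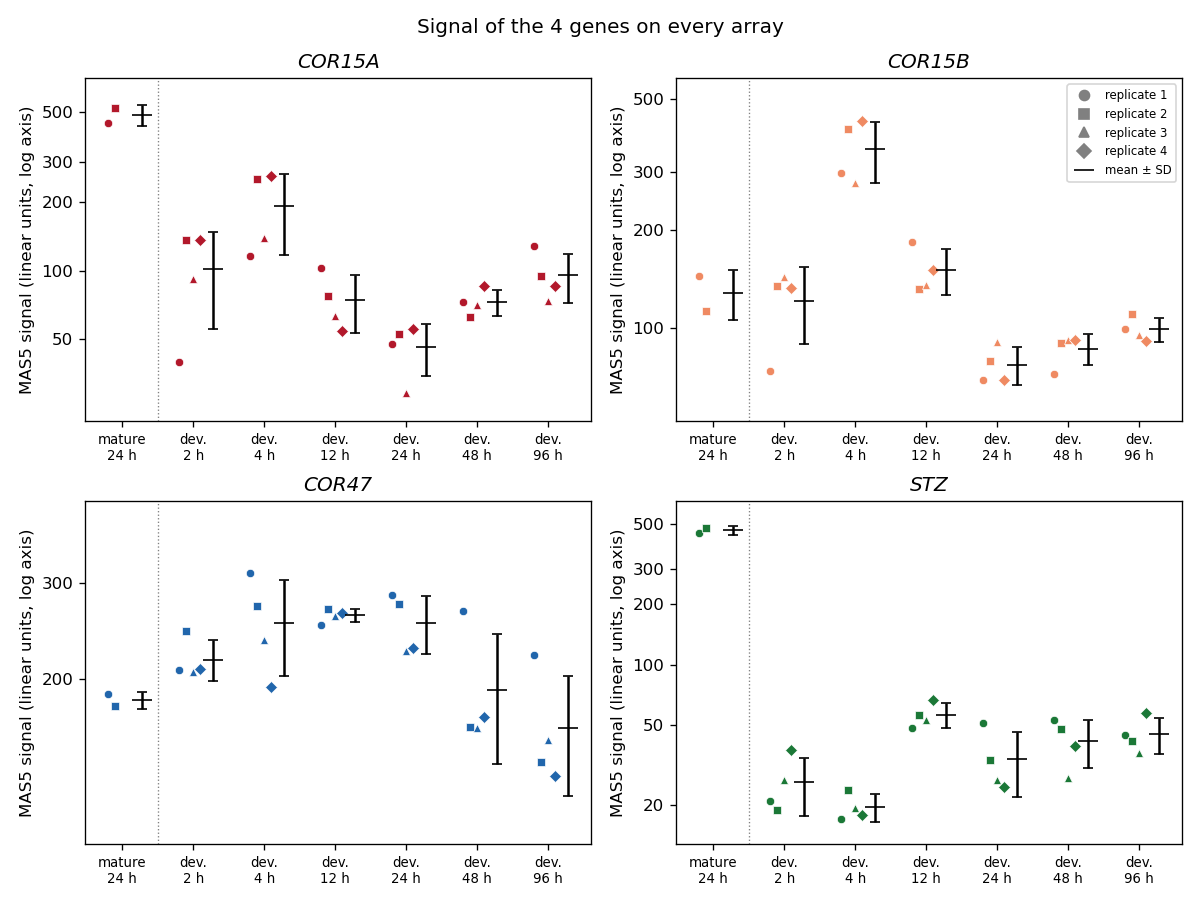
Signal of COR15A, COR15B, COR47 and STZ on each array (log axis), with mature leaves at 24 h on the left and developing leaves by time to their right. Symbols mark replicate numbers and the black bars give mean ± SD (n = 2 mature, n = 4 at each developing time). The mature arrays lie above all developing arrays for COR15A and STZ, whereas COR15B is highest at 4 h.

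STZ read 450.8 and 482.0 on the 2 mature arrays. The developing arrays at 24 h read 50.9, 33.5, 26.5 and 24.5. No array of any developing group came near the mature ones, the highest being 66.9 at 12 h. The mean signal was 466 ± 22.1 in mature leaves (SD, n = 2) and 33.9 ± 12.0 in developing leaves (n = 4), a ratio of 13.8. The log2 change was 3.30 ± 0.19 (limma adjusted p = 8.7e-14). It lay between 3.21 and 3.45 with any 1 array left out, and between 2.45 and 3.80 under the other alternatives of processing or samples. On developing 24 h replicates 3 and 4 STZ lay just below the array's 40th percentile.

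COR15A read 448.1 and 519.6 in mature leaves. Developing leaves at 24 h read 47.7, 52.3, 28.9 and 55.4, the lowest group mean of the gene. The groups were far apart, and none of the 24 developing arrays reached the lower mature value. The ratio of mean signals was 10.5 and the log2 change 3.03 ± 0.31 (limma adjusted p = 3.7e-09). Without any 1 array it was 2.88 to 3.13, and under the other alternatives of processing or samples 2.32 to 3.40.

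COR15B, the paralog, read 144.2 and 112.7 in mature leaves, against 69.5, 79.6, 91.2 and 69.7 in developing leaves at 24 h. The groups did not overlap, but 11 of the 24 developing arrays, all 4 at 4 h among them, were above the lower mature value. The ratio of mean signals was 1.66 and the log2 change 0.63 ± 0.19 (limma adjusted p = 0.0058). Without mature replicate 1 the change was 0.47 and the call was lost (adjusted p = 0.12, the remaining mature array being assumed to vary like the other groups).

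COR47 was the member that was lower in mature leaves, with 187.9 and 178.7 there and 284.5, 274.5, 225.5 and 228.0 in developing leaves at 24 h. The groups did not overlap, but the mature mean (183) was above that of developing leaves at 96 h (163). Against 24 h the log2 change was -0.43 ± 0.18 (limma adjusted p = 0.043). This call was lost without either mature array or without developing 24 h replicate 1 or 2, with changes then of -0.46 to -0.37 and adjusted p of 0.085 to 0.18. It was also lost when each array was centred on its median (-0.39, adjusted p = 0.069).

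**Figure D2:**
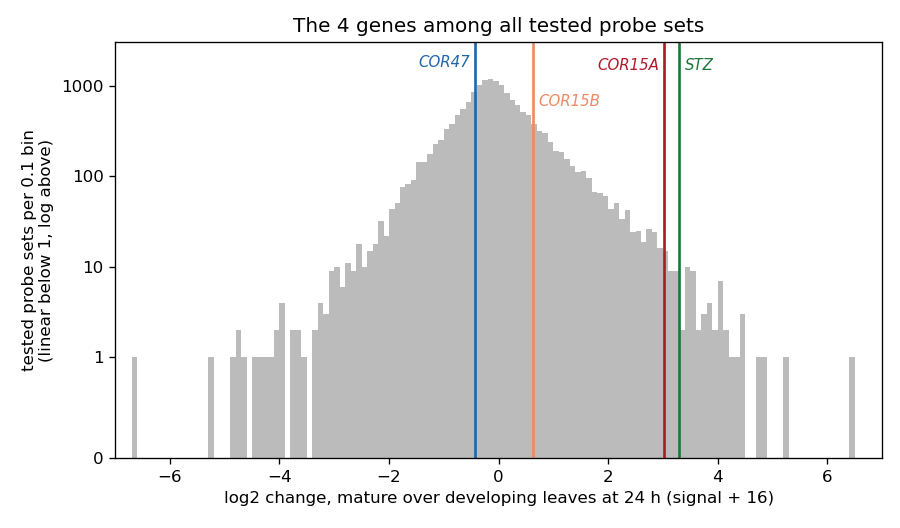
Number of probe sets per 0.1 bin of log2 change, mature over developing leaves at 24 h (vertical axis linear below 1 and logarithmic above). Vertical lines mark the 4 genes: STZ at 3.30 and COR15A at 3.03 in the upper tail, COR15B at 0.63, and COR47 at -0.43 within the bulk.

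Mature and developing leaves also differed in the marker lists. All 6 measured genes of proliferating cells, of 16 listed, were lower in mature leaves, with summed signals of 389 to 405 there and 1398 to 1496 in developing leaves at 24 h. Over all probe sets 30.7% were called lower and 24.1% higher. All 4 tested senescence markers were higher, and the 5 measured of 13 listed summed to 963 to 1080 in mature leaves and 66.1 to 76.9 in developing leaves. They included PPDK, an enzyme of nitrogen remobilisation (4.71 ± 0.31), SAG29, a sugar transporter (2.35 ± 0.19), and WRKY53, a transcription factor of early senescence (1.72 ± 0.19). Most of the mature sum was PPDK, which averaged 732 ± 112. SAG29 read at most 19.5 on any developing array, where the 40th percentile was at least 24.3. It entered the tests only through the mature arrays, so its call, and the count of all 4, depend in part on the filter. WRKY6, measured but too dim to test, averaged 16.9 ± 5.25 in mature leaves and 10.6 ± 4.54 in developing leaves. The only measured phloem marker of 8, the sucrose exporter SWEET11, was higher by 2.38 ± 0.16. It read 611 to 641 in mature leaves and 86.6 to 138 in developing leaves. TRY, a regulator of trichome spacing and the 1 measured of 12 epidermis and trichome markers, was higher (0.92 ± 0.16, limma adjusted p = 2.4e-05), at 105 to 148 in mature leaves and 50.3 to 66.5 in developing leaves. FAMA, which acts in guard cell formation and was the 1 measured of 9 guard cell markers, was lower (-0.56 ± 0.15, adjusted p = 0.0018). EXPA7, a root hair expansin and the 1 measured root marker of 12, was dim, at 7.18 to 23.4 in mature leaves and 25.8 to 33.7 in developing leaves (-0.61 ± 0.22, lost without mature replicate 2, adjusted p = 0.54). The part of these differences in the values of the 4 genes was not tested. In bulk leaves, fewer cells of a type and less RNA per cell cannot be told apart.

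In developing leaves all 4 genes differed between the 6 times in the F test, where 50% of all probe sets passed. The limma adjusted p was 1.6e-10 for COR15B, 4e-05 for STZ, 0.00012 for COR15A and 0.0014 for COR47. Within the first day, a later time is also another hour of the day, and clock time and duration of treatment cannot be told apart. The 6 proliferation genes summed to 1728 to 1893 at 2 h, 1835 to 2106 at 4 h, 1124 to 1294 at 12 h and 1398 to 1496 at 24 h. Of them 3 were called higher at 4 h versus 2 h (1.36% of all probe sets were), and 2 were called lower at 24 h versus 2 h (4.88%). At 12 h versus 2 h, 2 were called higher and 3 lower (15.1% and 13.5%), and at 24 h versus 12 h, 3 higher and 1 lower (13% and 16.2%). Several calls ended when 1 of the 8 arrays was left out. At 4 h versus 2 h the Aurora kinase AUR1 lost its call in 6 such fits and the topoisomerase TOPII in 3 (limma adjusted p up to 0.11). At 24 h versus 2 h the histone gene HTB4 lost it in 2 (up to 0.057). At 24 h versus 12 h AUR1 lost it in 4 (up to 0.27) and the histone gene HTB1 in 3 (up to 0.062). The part of the 6 proliferation genes in the changes below was not tested. The comparisons below share groups, above all the 2 h and 24 h arrays, and 24 h is also the developing group set against mature leaves.

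**Figure D3:**
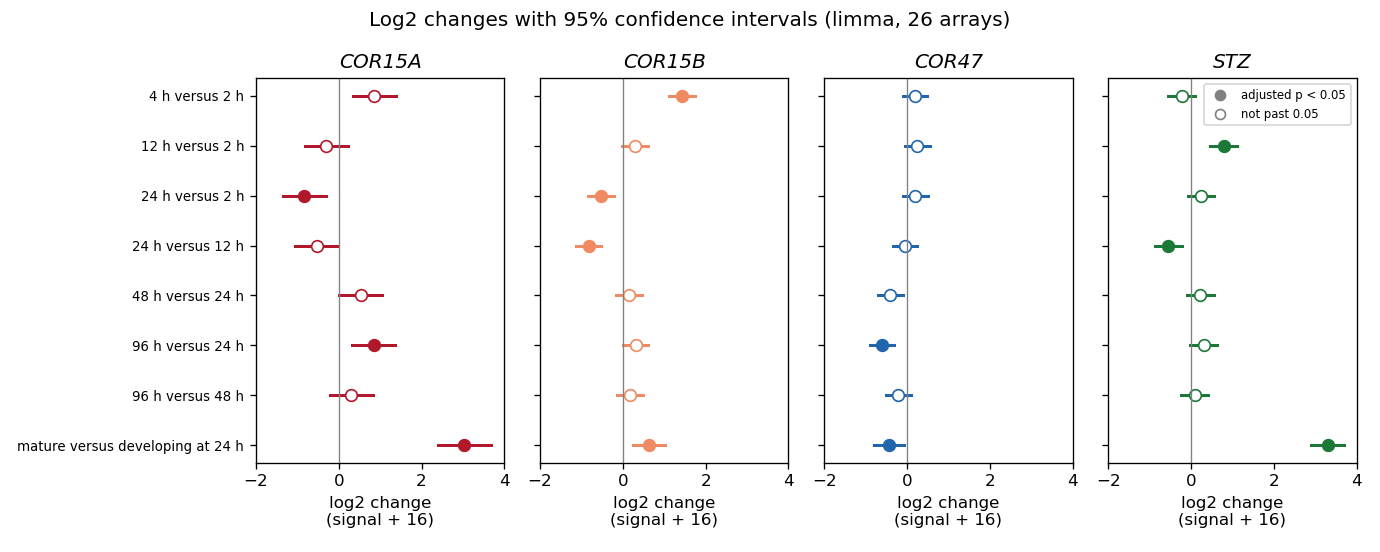
Log2 change of each gene (horizontal axis, signal + 16) in the 8 comparisons, with 95% confidence intervals from limma over 26 arrays. Filled circles passed an adjusted p of 0.05. COR15B passed at 4 h versus 2 h (1.43), and all 4 genes passed in mature versus developing leaves.

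COR15B had a single peak at 4 h. It read 74.1, 135.0, 143.7 and 133.2 at 2 h and 297.4, 403.3, 277.2 and 426.9 at 4 h. It read 183.8, 131.4, 135.7 and 150.9 at 12 h, and 69.5 to 91.2 at 24 h. The 4 h arrays were above every other array of the gene, and the later groups, at 72.8 to 92.5 at 48 h and 91.4 to 111.0 at 96 h, stayed low.

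At 4 h versus 2 h, COR15B was 2.89 times as high (351 ± 74.9 at 4 h and 122 ± 31.9 at 2 h, SD, n = 4 each). The log2 change of 1.43 ± 0.15 (limma adjusted p = 4.9e-07) was the 12th highest of all probe sets. It was 1.24 to 1.53 with any 1 array left out. COR15B was the 1 gene of the 4 that passed here, where 2.04% of probe sets did, and it rose without overlap between the groups.

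COR15A followed a similar course with more spread. It read 39.7, 136.7, 91.9 and 136.7 at 2 h, 115.5, 251.9, 139.7 and 260.3 at 4 h, and 102.3, 77.6, 62.9 and 54.2 at 12 h. Replicates 2 and 4 were the high arrays at both 2 h and 4 h, and the 2 groups overlapped. The log2 change at 4 h versus 2 h was 0.86 ± 0.25 (95% confidence interval 0.34 to 1.38) and did not pass (limma adjusted p = 0.086). It passed without developing 2 h replicate 2 (adjusted p = 0.048) or 4 (0.048) or without 4 h replicate 1 (0.032), with changes then of 1.02, 1.02 and 1.05, and was lowest, 0.54, without 2 h replicate 1 (adjusted p = 0.39).

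COR47 and STZ did not pass at 4 h versus 2 h. COR47 read 312.1, 271.5, 235.8 and 194.1 at 4 h, against 208.2, 245.2, 206.4 and 209.1 at 2 h (0.19 ± 0.14). STZ read 16.9, 23.8, 19.3 and 17.8 at 4 h, against 21.0, 18.7, 26.5 and 37.5 at 2 h (-0.23 ± 0.16). Both pairs of groups overlapped. On all 4 of the 4 h arrays STZ lay below the array's 40th percentile, where changes on this scale are understated.

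STZ was highest among developing leaves at 12 h. It read 48.0, 56.0, 53.0 and 66.9 there, each above all 4 of the 2 h arrays. At 12 h versus 2 h it rose by 0.79 ± 0.16 on the log2 scale (limma adjusted p = 3e-04; 56.0 ± 8.0 at 12 h and 25.9 ± 8.36 at 2 h). On 3 of the 4 arrays at 2 h it lay below the array's 40th percentile, and the size depends on the pseudocount, being 1.12 with 1 and 0.42 with 64. It was the 1 member of 4 called, and 28.6% of all probe sets were called. COR15A (-0.30 ± 0.25), COR15B (0.30 ± 0.15) and COR47 (0.25 ± 0.14) did not pass, although the COR47 groups, at 251.7, 268.6, 261.1 and 264.2 at 12 h, lay just above those at 2 h.

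At 24 h versus 12 h, STZ and COR15B both fell, and 29.3% of all probe sets passed. STZ changed by -0.55 ± 0.16 (limma adjusted p = 0.009), although developing 24 h replicate 1, at 50.9, lay within the 12 h range. With a pseudocount of 64 the STZ change was -0.30. COR15B changed by -0.83 ± 0.15 (adjusted p = 0.00013), with 77.5 ± 10.3 at 24 h and 150.5 ± 23.7 at 12 h and no overlap. Both calls held with any 1 array left out. COR15A (-0.53 ± 0.25, adjusted p = 0.12) and COR47 (-0.05 ± 0.14) did not pass.

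At 24 h versus 2 h, where 9.21% of probe sets passed, the 2 COR15 genes were lower and the other 2 genes were not called. COR15A averaged 46.1 ± 11.9 at 24 h and 101 ± 46.1 at 2 h (-0.83 ± 0.25, limma adjusted p = 0.037). COR15B averaged 77.5 ± 10.3 at 24 h and 122 ± 31.9 at 2 h (-0.53 ± 0.15, adjusted p = 0.027). In both genes the groups overlapped through developing 2 h replicate 1, the lowest 2 h array of each. Each call was lost without 24 h replicate 1 or without 2 h replicate 2, 3 or 4. COR15A also lost it without 24 h replicate 3 and COR15B without 24 h replicate 4, and the adjusted p was then at most 0.14 and 0.10. With a pseudocount of 64 the COR15A change was -0.54.

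From 24 h the samples are whole days apart. At 48 h versus 24 h none of the 4 genes passed in limma, and neither did any other probe set (0% of 16154, of which 1655 had an unadjusted p under 0.05). COR15A read 72.7, 62.8, 70.3 and 85.4 at 48 h, above all 24 h arrays (0.53 ± 0.25, unadjusted p = 0.046). COR47 read 266.8, 163.6, 163.2 and 170.8 at 48 h (-0.40 ± 0.14, unadjusted p = 0.01). Its replicate 1, an array with a high spike-in signal, stood alone within the 24 h range. Without that array the change was -0.56 (limma adjusted p = 0.095).

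By 96 h COR15A was higher and COR47 lower than at 24 h. These were 2 of the 4 genes, in a comparison in which 15% of probe sets passed. COR47 read 221.5, 141.7, 155.1 and 133.7 at 96 h, below all 4 of the 24 h arrays (-0.61 ± 0.14, limma adjusted p = 0.0049). COR15A read 127.8, 94.5, 73.2 and 85.4 at 96 h, above all 4 of the 24 h arrays (0.84 ± 0.25, adjusted p = 0.025). The COR47 call held with any 1 array left out. The COR15A call was lost without 96 h replicate 1 (0.71, adjusted p = 0.10) or 24 h replicate 3 (0.69, adjusted p = 0.094). Replicate 1 of 96 h was an array with a high reading of the 25S rRNA control (1536). With a pseudocount of 64 the COR15A change was 0.53.

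Cell type markers moved in the same comparison, and their part in these changes was not tested. Of the 6 measured proliferation genes 5 were lower at 96 h than at 24 h, where 7.23% of all probe sets were called lower. They included the Aurora kinase AUR2 (-1.04 ± 0.10) and TOPII, a topoisomerase (-0.83 ± 0.19), and their 6 signals summed to 926 to 1012 at 96 h and 1398 to 1496 at 24 h. The call of AUR1 ended without developing 96 h replicate 1 (limma adjusted p = 0.062). The senescence marker PPDK was higher (1.89 ± 0.25), the 1 called of 4 tested where 7.74% of all probe sets were called higher. The 5 measured markers summed to 141 to 211 at 96 h and 66.1 to 76.9 at 24 h. Most of that rise was PPDK itself, which averaged 94.0 ± 34.2 at 96 h and 12.8 ± 4.53 at 24 h. SWEET11 (0.55 ± 0.13) and TRY (0.46 ± 0.13) were higher and EXPA7 (-0.67 ± 0.18) lower, the call of TRY ending without developing 96 h replicate 1 or 24 h replicate 3 and that of EXPA7 without 96 h replicate 3 (adjusted p up to 0.12 and 0.062).

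COR15B (0.31 ± 0.15) and STZ (0.31 ± 0.16) did not pass at 96 h versus 24 h. STZ read 44.3, 41.6, 36.1 and 57.5 at 96 h. Without developing 24 h replicate 1, an array with a high spike-in signal, its change was 0.46 and passed (limma adjusted p = 0.045). At 96 h versus 48 h, where 3.53% of probe sets passed, none of the 4 genes did. Their changes ran from -0.21 ± 0.14 for COR47 to 0.31 ± 0.25 for COR15A.

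Placed in order of mean signal over the 7 groups, COR15A ran from mature leaves (484) through 4 h (192), 2 h (101), 96 h (95.2), 12 h (74.2) and 48 h (72.8) to 24 h (46.1). Mature leaves did not overlap with 4 h, nor 48 h with 24 h, while the other neighbours in this order overlapped. COR15B ran from 4 h (351) through 12 h (150.5), mature leaves (128), 2 h (122), 96 h (99.4) and 48 h (86.9) to 24 h (77.5). For COR15B the 4 h group alone was clear of its neighbour.

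COR47 spanned the narrowest range, from 261 at 12 h through 4 h and 24 h (both 253), 2 h (217), 48 h (191) and mature leaves (183) to 163 at 96 h, and every neighbouring pair overlapped. STZ ran from mature leaves (466) through 12 h (56.0), 96 h (44.9), 48 h (41.7), 24 h (33.9) and 2 h (25.9) to 4 h (19.4). For STZ the mature group alone was clear of its neighbour. The lowest group was thus 24 h for both COR15 genes, 96 h for COR47 and 4 h for STZ.

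COR15A and COR15B are neighbouring genes in the TAIR10.1 gene table, and whether their probe sets also read each other's transcripts was not examined. Across the 24 developing arrays their log2 values correlated at r = 0.80, and over all 26 arrays at 0.555. These values are descriptive, since arrays of 1 time share their group. Taken per array, COR15A minus COR15B changed by 2.40 on the log2 scale between mature and developing leaves at 24 h, and the groups did not overlap. The exact two-sided permutation p was 0.067, the smallest that 2 against 4 arrays allow, and 0.17 after adjustment over the 8 comparisons. The other comparisons gave differences of -0.60 to 0.53, with overlapping groups and exact p of 0.057 to 0.46. The smallest exact p that 4 against 4 arrays allow is 0.029, and 1 comparison at that value alone could not pass the adjustment over 8. Unequal change of the pair was thus not established in any comparison, and these tests had little room to establish it.

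**Figure D4:**
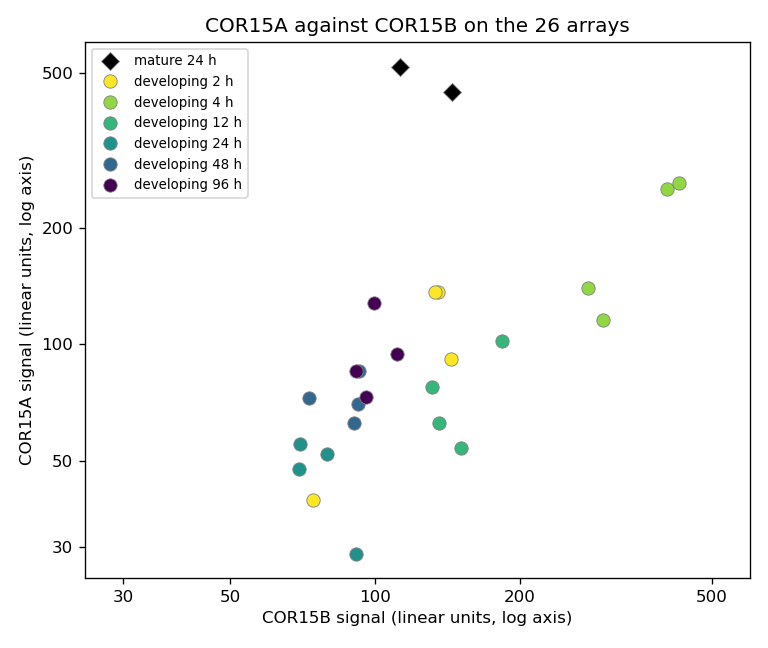
Signal of COR15A (vertical, log axis) against COR15B (horizontal, log axis) on the 26 arrays, coloured by group. Developing arrays fall along a band from 24 h at the low end to 4 h at the high end, and the 2 mature arrays, with COR15A at 448 and 520, lie above that band.

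The other pairs shared little of their course in developing leaves. STZ correlated at -0.35 with COR15A and -0.43 with COR15B over 24 arrays, and COR47 at 0.01 with COR15A, 0.27 with COR15B and -0.08 with STZ. Over all 26 arrays the value for COR15A with STZ was 0.55, with the 2 mature arrays high for both genes, whereas the rank correlation over the same arrays was -0.06.

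Few other genes of these pathways could be named on the array. None of 16 listed CBF pathway regulators, 40 abscisic acid genes and 10 zinc fingers related to STZ had a named probe set here, so the regulators upstream of the 4 genes were not analysed. Of 30 listed cold and drought effector genes, 4 were named and 3 tested: the dehydrins LTI30 and AT1G54410 (HIRD11), and COR27, a cold-regulated gene that acts in the clock. LEA4-5, a late embryogenesis abundant protein, was named but too dim to test.

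In mature versus developing leaves at 24 h, 2 of these 3 were higher and 0 lower, where 54.8% of all probe sets were called and 24.1% were called higher. HIRD11 averaged 1160 ± 48.4 in mature leaves and 592 ± 177 in developing leaves (1.00 ± 0.21, limma adjusted p = 0.00023). The 24 h mean was the lowest of HIRD11, and developing leaves at 4 h averaged 981 ± 89.8. LTI30 averaged 63.7 ± 27.1 in mature leaves and 37.7 ± 6.97 in developing leaves (0.54 ± 0.19, adjusted p = 0.017). Its groups overlapped, with 44.6 and 82.9 in mature leaves and 32.9 to 48.1 in developing leaves, and without mature replicate 1 the change was 0.18 and was not called (adjusted p = 0.53). HIRD11 kept its call with any 1 array left out (changes of 0.82 to 1.16), whereas COR47, also a dehydrin, was lower with a call that single arrays ended.

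COR27 was bright at 12 h alone, where it averaged 145 ± 12.1, against 1.49 ± 0.541 at 2 h (3.20 ± 0.12, limma adjusted p = 4.2e-17). It averaged 2.94 ± 2.48 at 24 h and 3.73 ± 3.59 in mature leaves, both dim. On no array outside 12 h did it read above 6.65, so it entered the tests through the 12 h arrays alone. Its calls at 12 h versus 2 h and 24 h versus 12 h, and the counts that hold them, depend in part on that filter. COR27 was the 1 of the 3 tested effector genes that passed at 12 h versus 2 h, a share near the 28.6% of all probe sets. At 24 h versus 12 h, where 29.3% of probe sets passed, COR27 (-3.10 ± 0.12) and HIRD11 (-0.58 ± 0.17) were both lower, although HIRD11 did not pass with developing 24 h replicate 2 left out (-0.40, adjusted p = 0.072). HIRD11 also passed at 24 h versus 2 h (-0.54 ± 0.17), where 9.21% did, but not when any of 7 of the 8 arrays was left out (adjusted p up to 0.21). In the other comparisons between times 0 of the 3 passed.

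The lists of stress signalling and of the clock were as sparsely covered. WRKY53 was the 1 measured of 16 early stress-response transcription factors, and is the gene already counted among the senescence markers above. It passed in mature leaves (1.72 ± 0.19) and at 12 h versus 2 h (0.47 ± 0.15), the comparisons in which STZ was called higher. At 12 h versus 2 h that call ended without developing 2 h replicate 2 or 12 h replicate 3 or 4 (adjusted p up to 0.066). Its signal was 113 ± 24.6 in mature leaves and 23.0 ± 6.23 in developing leaves at 24 h. Of 23 enzymes that scavenge reactive oxygen, the chloroplast ascorbate peroxidases SAPX and TAPX were measured. SAPX was lower in mature leaves (-0.40 ± 0.16), a call lost without mature replicate 1 or developing 24 h replicate 2, 3 or 4 (adjusted p up to 0.33). TAPX was called only between times of the first day. It was higher at 24 h versus 2 h (0.35 ± 0.09) and versus 12 h (0.63 ± 0.09), and lower at 12 h versus 2 h (-0.28 ± 0.09), the last lost without developing 12 h replicate 1 or 3 or 2 h replicate 3 (adjusted p up to 0.099).

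GI, which acts in the evening arm of the clock, was the 1 measured clock gene of 18. Like COR15B it passed at 4 h versus 2 h, with 1.28 ± 0.12 (limma adjusted p = 8e-08) and signals of 140.5 to 168 at 4 h and 51.1 to 63.98 at 2 h. It read 5.35 to 18.8 at 12 h, its lowest group, when COR15B was at its second highest. In mature versus developing leaves GI did not pass (0.08 on the log2 scale).

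The named genes whose log2 values followed each member most closely over the 26 arrays were picked by Pearson's r among 8980 candidates, as a description. For STZ they were AT4G13530 (0.96), AT1G80180 (0.96), AT3G10930 (0.95), AT1G32700 (0.95) and YLMG1-2 (0.95). Each was highest in mature leaves. AT4G13530 averaged 422 ± 30.7 there and 90.7 ± 12.4 in developing leaves at 24 h. AT3G10930 averaged 172 ± 21.8 in mature leaves and 1.5 ± 1.3 in developing leaves, and was at most 10.1 on average at any developing time. None of the 5 was among the 5 closest over the 24 developing arrays alone, so the choice changed entirely without the 2 mature arrays.

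For COR15B the closest genes were AT2G39920 (0.89), AT1G56300 (0.87), AT4G14230 (0.85), AT4G36010 (0.85) and PORB (0.84), and 4 of the 5 were also among the closest over developing arrays. They shared the peak at 4 h. PORB, which encodes the light-dependent protochlorophyllide oxidoreductase of chlorophyll synthesis, averaged 1158 ± 123 at 2 h, 2595 ± 122 at 4 h, 1544 ± 113 at 12 h and 742.7 ± 8.55 at 24 h. AT2G39920 averaged 39.2 ± 11.3 at 2 h, 97.2 ± 7.38 at 4 h and 8.58 ± 2.37 at 24 h.

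For COR15A the closest were AT1G01500 (0.89), AT5G05200 (0.87), AT5G59130 (0.87), AT1G13990 (0.85) and AT1G02270 (0.84), of which 2 were also among the 5 closest over developing arrays. AT5G05200 averaged 612 ± 56.0 in mature leaves and 183 ± 48.9 in developing leaves at 24 h. Among developing times its mean was highest at 4 h (336 ± 26.6), as was that of COR15A. COR47 had the weakest matches, AT5G57080 (0.79), AT3G18840 (0.76), AT1G31460 (0.74), AT5G23540 (0.74) and AT5G50110 (0.73), of which 1 was also among the 5 closest over developing arrays. AT3G18840 averaged 42.6 ± 2.83 at 12 h and 24.2 ± 3.85 at 96 h, the highest and lowest groups of COR47 too.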

How the data were processed

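Total RNA was hybridised to ATH1 arrays, on which a probe set reads each transcript. The deposited intensity values are linear signals that the authors made with MAS5, per the submitters' processing notes, with no version given. Detection calls and scanner files were not used here. Groups came from the labels. Values were taken as log2(signal + 16). The 64 control probe sets were left out, and probe sets above their array's 40th percentile on at least 2 arrays were tested (16154). A model of 7 group means was fitted with limma 3.58.1 in R 4.3.3, with empirical Bayes moderation and a variance trend, and p-values were adjusted by Benjamini-Hochberg. The scripts were tested on simulated data. COR15A minus COR15B was tested with exact permutation tests.

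Gene names came from a platform annotation, updated with a TAIR10.1 gene table. It gave 1 gene for 13513 probe sets, and those with several or none were tested but not named. No coordinates or sequences were used. The 4 genes, the lists, the comparisons and most alternatives were chosen with earlier results of these data known. From each list up to 3 called genes with the largest change per comparison could be named, and for each of the 4 genes the 5 with the highest Pearson's r. A few further list genes are named after their values were seen. They are GI and COR27 in comparisons where they did not pass, LEA4-5, WRKY6, EXPA7, PSAN and RCA. AUR1 at 96 h versus 24 h and HTB1 at 24 h versus 12 h are others. The alternatives were another pseudocount, filter, scaling, variance model or choice of samples, array weights, the replicate number as a block, and leaving out single arrays. Leaving out single arrays for the list genes and the correlations over developing arrays alone were chosen after seeing the data. The number of arrays limits the precision.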

Additional observations from a re-analysis of the deposited data

Results flagged for a closer look

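In 4 of the 24 sets of 4 replicates, 1 array lay apart from the rest by Dixon's test, which chance alone does for about 1 in 20. COR15B read 74.1 on developing 2 h replicate 1, against 133 to 144 on the others, and 72.8 on developing 48 h replicate 1, against 90.2 to 92.5. COR47 read 245.2 on developing 2 h replicate 2, against 206 to 209, and 266.8 on developing 48 h replicate 1, against 163 to 171. Developing 48 h replicate 1 thus stood apart in both genes, low for COR15B and high for COR47. It is an array with a high spike-in signal, and the part of that in these values was not tested.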

How the results depend on the processing

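With array weights COR15A passed at 4 h versus 2 h (0.90, limma adjusted p = 0.025) and 24 h versus 12 h (-0.64), COR47 at 48 h versus 24 h (-0.44) and STZ at 96 h versus 24 h (0.43). With only the groups compared, COR47 passed at 12 h versus 2 h (0.25) and COR15A at 24 h versus 12 h (-0.53), and at 24 h versus 2 h COR15A (-0.83, 0.10) and COR15B (-0.53, 0.094) did not. With no filter COR15A at 24 h versus 2 h (-0.83, 0.071) and COR47 in mature leaves (-0.43, 0.063) did not pass. Without the 2 high spike-in arrays the 24 h versus 2 h calls of COR15A (-0.85) and COR15B (-0.49) and the mature call of COR47 (-0.37) were lost, and STZ passed at 96 h versus 24 h (0.46). The mature call of COR47 was also lost with median centring (-0.39) and no variance trend (-0.43). With any 1 array left out, COR15A ranged from 0.54 to 1.05 at 4 h versus 2 h, -0.62 to -0.14 at 12 h versus 2 h (passing without developing 2 h replicate 1, adjusted p = 0.04), -1.15 to -0.67 at 24 h versus 2 h and 0.69 to 0.94 at 96 h versus 24 h. COR15B ranged from -0.72 to -0.44 at 24 h versus 2 h and 0.47 to 0.78 in mature leaves, COR47 from -0.48 to -0.37 in mature leaves, and STZ from 0.21 to 0.46 at 96 h versus 24 h. At 96 h versus 48 h STZ, not called, ranged from -0.045 to 0.18, its sign turning without developing 48 h replicate 3 (-0.045) or 96 h replicate 4 (-0.0076). The cause of these changes was not tested. Of the other tested values under the alternatives, 752 kept direction and side of the threshold, including all for STZ and COR15A in mature leaves and COR15B at 4 h versus 2 h. Another 62, of COR15A minus COR15B with single arrays left out, have no test and moved by less than 1 SD.

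Counts over all probe sets moved too: 565 with weights at 4 h versus 2 h (330 in the fit reported), 931 with 2 groups at 24 h versus 2 h (1487), and 1565 with 2 groups or 1600 without 96 h replicate 1 at 96 h versus 24 h (2419). At 48 h versus 24 h (0) there were 500 with weights, 3 with a pseudocount of 64, 15 without the spike-in arrays, and 83, 12 and 2 without 24 h replicate 1, 48 h replicate 1 and 48 h replicate 3. At 96 h versus 48 h (571) there were 975 with weights, 202 with 2 groups, 380 without the spike-in arrays, 317 without 48 h replicate 1, and 197, 861 and 201 without 96 h replicates 1, 2 and 4. Same-numbered arrays correlated in their deviations at -0.17 to 0.52 (median 0.04), above 0.1 in 23 of 72 pairs, so the numbers were not taken as pairs. Averaged per number over the other groups, 14 of 26 arrays had their highest correlation with their own number. That is a hint of a shared effect of some numbers. With the replicate block no call of the 4 genes changed, COR15B at 4 h versus 2 h was 1.43 and 19 probe sets passed at 48 h versus 24 h.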

Other observations

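Some replicate numbers lay to one side across times. COR47 was highest on replicate 1 at 4 of the 6 developing times and never above its group mean on replicate 3. COR15A was likewise above its group mean on replicate 3 at 0 of 6 times, and on replicate 2 at 5 of 6. Replicate 1 of developing 24 h, 48 h and 96 h gave the highest readings of the 25S rRNA control, and COR47 was highest of its group on each of these 3 arrays. Replicate 1 also had the highest 25S reading of its group at 2, 4 and 12 h (138, 153 and 190). There COR47 was highest on replicate 1 at 4 h, but not at 2 h (208.2), and lowest on it at 12 h (251.7). Whether the 2 measures are connected was not tested.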
